A study of Xenopus tropicalis with 36 samples.

Results

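A set of 9 inflammatory signalling genes was followed in *X. tropicalis* embryos: the cytokines *il1b*, *tnf* and *ltb*, the chemokines *il8* and *ccl4*, the receptor *il1r2*, the kinase *map3k14*, the feedback inhibitor *socs3* and the TNF-inducible gene *tnfaip2*. They were found by symbol among the 25774 genes of the count table, and all 9 passed the filter on low counts, as did 17987 genes in all. The list was chosen by how these genes differed between morpholino-injected and uninjected embryos, so their levels in those embryos are given as a description, without a test. The embryos came from 2 experiments. In the knockdown (KD) experiment, wild-type eggs received, before their first cleavage, a mix of splice- and translation-blocking morpholinos (MOs) against the *Brachyury* paralogs *t* and *t2* (*t*/*t2* MO, 18 ng in total), or the standard control MO (cMO, 18 ng), or were left uninjected. In the knockout (KO) experiment, frogs heterozygous for frameshift deletions in both *t* and *t2* were intercrossed to give *t*-/- *t2*-/- (*t*/*t2* KO), *t*-/+ *t2*-/+ (*t*/*t2* het) and *t*+/+ *t2*+/+ (WT) embryos. Whole embryos of all 6 conditions were collected at 2 tailbud stages, 26 and 34, from 3 clutches, which were 3 separate fertilizations (frogs D, E and F) in the KD and 3 crosses (1, 2 and 9) in the KO experiment, and each library pooled RNA of sibling embryos. Both deletions descend from a single founder line, and the *t*/*t2* MOs carried a fluorescent tag that the cMO lacked.

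Interleukin-1 and TNF are the classical early cytokines of the innate immune response. Both signal through NF-kappaB, which in turn induces their own genes, chemokines that draw neutrophils and macrophages, and inhibitors that limit the response. The lymphotoxin and NIK (*map3k14*) branch feeds the non-canonical arm of NF-kappaB. Primitive myeloid cells are the first immune cells of the frog embryo.

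The libraries held 30225504 to 52401214 fragments on genes (median 37215941), and levels are given below as CPM (counts scaled to a common library size, with TMM normalization). *t2* averaged 1.02 ± 0.562 CPM in *t*/*t2* MO embryos against 36.4 ± 2.71 CPM in uninjected embryos at stage 26, and 0.0626 ± 0.0408 CPM in *t*/*t2* KO embryos against 24.0 ± 2.33 CPM in WT embryos (SD, n = 3 each). *t* differed less with *t*/*t2* MOs, at 15.8 ± 2.4 CPM against 25.4 ± 2.0 CPM in uninjected embryos at stage 26. In the crosses at that stage it was at 3.17 ± 0.90 CPM in KO, 31.2 ± 1.1 CPM in het and 20.2 ± 3.1 CPM in WT embryos. Of 12 markers of muscle, neural tissue, epidermis, blood and endoderm, 11 were in the table and had counts in every library. The muscle markers, named after their values were seen, differed at stage 26. *actc1* averaged 2278 CPM with *t*/*t2* MOs against 4444 CPM in uninjected embryos, and 1983 CPM in KO against 4306 CPM in WT embryos. For *myod1* the means were 6.29 against 22.0 CPM and 2.66 against 11.4 CPM. *myh6* differed less, at 22.3 against 23.7 CPM and 25.1 against 35.7 CPM. In whole embryos, fewer cells of a type and less RNA per cell cannot be told apart.

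**Figure D1:**
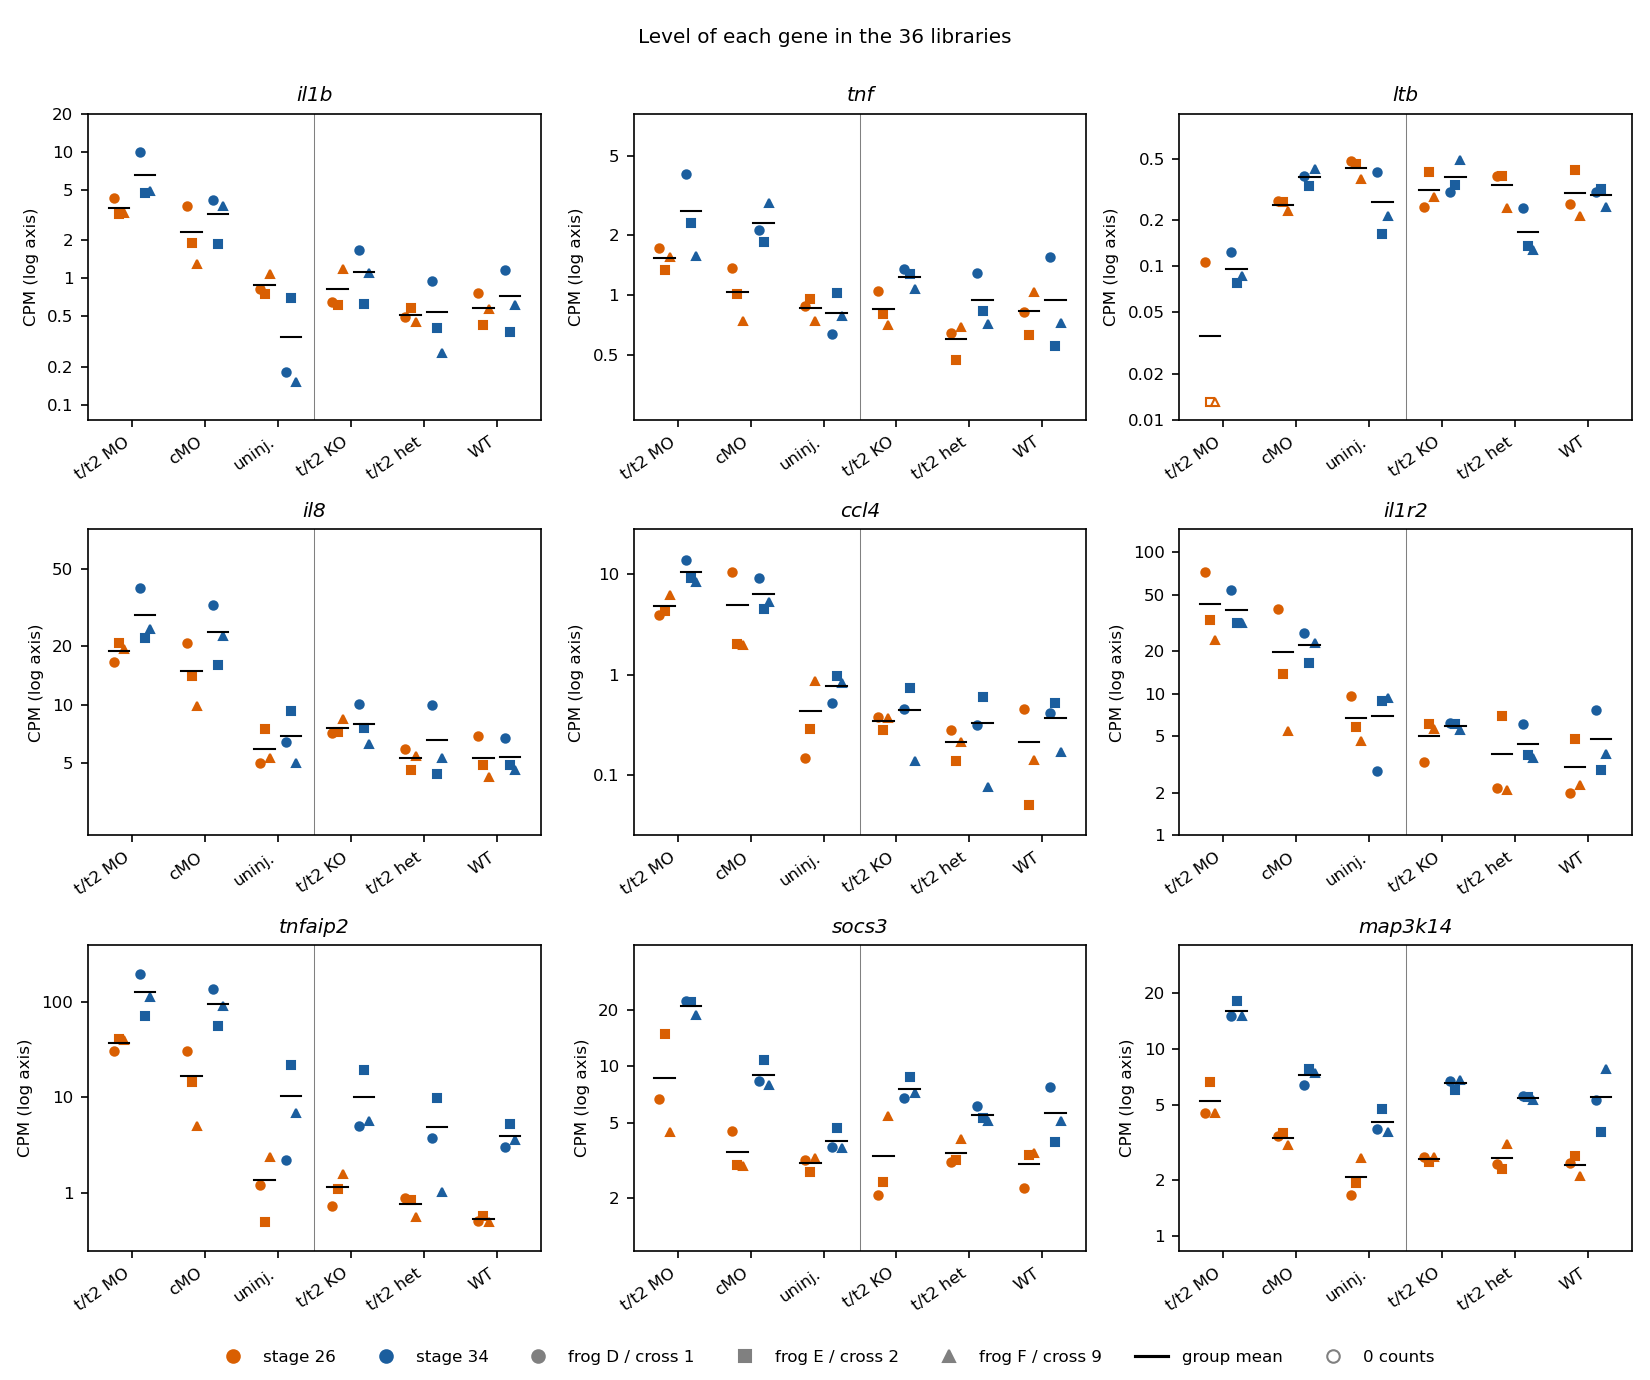
Level of each of the 9 genes in all 36 libraries, in CPM on a log axis, by condition (x axis) and stage (orange, stage 26; blue, stage 34). Symbols mark the clutch, black lines the group means and open symbols libraries with 0 counts; 8 genes are higher in *t*/*t2* MO than in uninjected embryos at both stages, and *ltb* is lower.

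In *t*/*t2* MO embryos, 8 of the 9 genes were higher than in uninjected embryos and *ltb* was lower. By the call used throughout (FDR of at most 10% over all genes, at least 1.5-fold, mean normalized count above 7), this was 8 called higher, where 6.64% of all genes were called higher, and 1 called lower, where 8.58% were. In cMO embryos, 7 of 9 were called higher and 0 lower against 0.773% and 0.650% of all genes. Since these contrasts chose the genes, nothing is read from the shares. At stage 26, all 3 libraries of *t*/*t2* MO embryos lay above all 3 uninjected libraries for 8 genes (14.4% of all genes did), and at stage 34 for 8 (21.6% of all genes). For cMO embryos this held for 5 genes at stage 26 (6.73% of all genes) and 8 at stage 34 (11.7%).

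**Figure D2:**
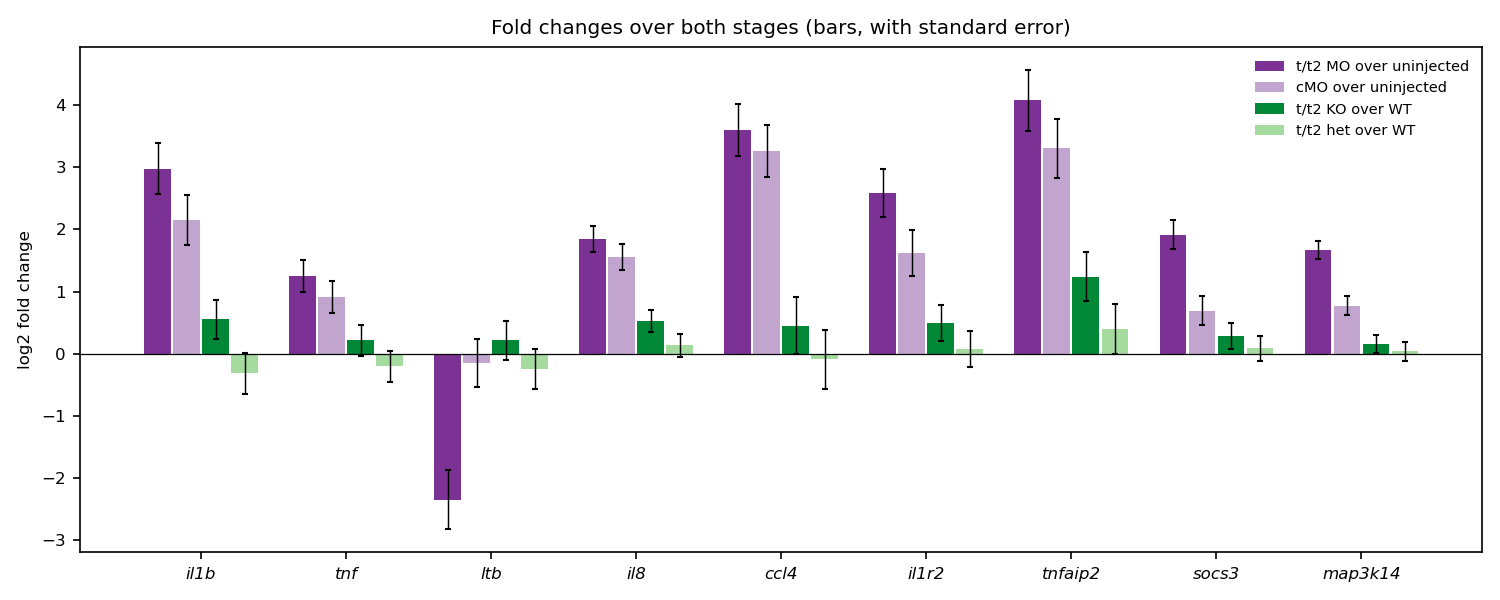
Fold change of each gene over both stages, on the log2 scale, with standard error, from the edgeR fit of stage and condition. The bars for *t*/*t2* MO and cMO over uninjected embryos are descriptions, those for *t*/*t2* KO and *t*/*t2* het over WT were tested; *tnfaip2* has the highest bar in each of the 4 comparisons.

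*il1b* (Xetro.C00451, minus strand of scaffold 3 of assembly v7.1 from 11742613 to 11747358) encodes interleukin-1 beta, the secreted cytokine that starts the IL-1 response. At stage 26 it was at 4.32, 3.27 and 3.29 CPM in *t*/*t2* MO embryos of frogs D, E and F, at 3.78, 1.93 and 1.31 CPM in cMO embryos and at 0.831, 0.753 and 1.08 CPM in uninjected embryos. At stage 34 the values were 10.1, 4.74 and 4.98 CPM with *t*/*t2* MOs, 4.18, 1.88 and 3.75 CPM with cMO and 0.182, 0.697 and 0.151 CPM without injection. The morphant libraries stood above every uninjected library of their stage, least so in cMO embryos of frog F at stage 26. The log2 fold change over both stages was 2.98 ± 0.40 (± standard error derived from the F statistic, here and below) for *t*/*t2* MO and 2.15 ± 0.40 for cMO.

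*tnf* (Xetro.H00838, plus strand of scaffold 8 from 44720426 to 44723254), the founding member of the TNF cytokines, was among the lowest of the 9 genes. In stage 26 embryos it stood at 1.72, 1.34 and 1.55 CPM in *t*/*t2* MO embryos, 1.37, 1.01 and 0.740 CPM in cMO embryos and 0.880, 0.956 and 0.738 CPM in uninjected embryos. At stage 34 the values were 4.08, 2.30 and 1.57 CPM, 2.12, 1.86 and 2.92 CPM, and 0.638, 1.02 and 0.788 CPM in *t*/*t2* MO, cMO and uninjected embryos. The cMO and uninjected libraries overlapped at stage 26 and no longer did at stage 34. The log2 fold change was 1.25 ± 0.26 with *t*/*t2* MO and 0.91 ± 0.26 with cMO, and the cMO call was lost without frog D, without frog E and without frog F (7 of 12 settings kept it).

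*ltb* (Xetro.H00839, minus strand of scaffold 8 from 44780012 to 44788197), carries the symbol of lymphotoxin beta, in mammals the membrane-bound partner of lymphotoxin alpha, while its best-hit description in the annotation is Fas ligand. It lies 56757 bases from *tnf*, with its 3' end facing that of *tnf* and 0 gene models between. Like *ltb* in RefSeq, it also has *rgs3* and *prrc2a* close by. At stage 26 it had 4, 0 and 0 counts in *t*/*t2* MO embryos of frogs D, E and F, 11, 8 and 8 counts in cMO embryos and 20, 16 and 14 counts in uninjected embryos. A count of 0 allows up to 0.0876 CPM (frog E) and 0.0913 CPM (frog F), at 3 counts per library and for counting error only. At stage 34 there were 5, 3 and 3 counts with *t*/*t2* MOs, 15, 13 and 17 counts with cMO, and 18, 7 and 7 counts without injection. *ltb* was thus lower in *t*/*t2* MO embryos than in every uninjected library of the stage, as were 18.2% of all genes at stage 26 and 25.4% at stage 34. Its log2 fold change was -2.36 ± 0.47, while cMO embryos were at -0.16 ± 0.39. Its neighbour *tnf* had the opposite direction in the same libraries. In cMO embryos all 3 libraries were below the uninjected ones at stage 26 (7.99% of all genes were), but not at stage 34.

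*il8* (Xetro.A02763, plus strand of scaffold 1 from 160710214 to 160713230) encodes the CXC chemokine that attracts neutrophils and is also known as *cxcl8*. In the file's best-hit description it is a platelet basic protein, but *cxcl2* lies close to it, as it does to *cxcl8* in RefSeq (UCB_Xtro_10.0). In stage 26 embryos it measured 16.6, 20.7 and 19.4 CPM in *t*/*t2* MO embryos, 20.7, 14.1 and 9.82 CPM in cMO embryos and 4.99, 7.45 and 5.32 CPM in uninjected embryos. At stage 34 it measured 40.0, 21.9 and 24.6 CPM, 32.5, 15.9 and 22.5 CPM, and 6.40, 9.29 and 5.03 CPM in *t*/*t2* MO, cMO and uninjected embryos. No morphant library overlapped an uninjected one. The log2 fold changes were 1.85 ± 0.21 for *t*/*t2* MO and 1.56 ± 0.21 for cMO.

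*ccl4* (Xetro.B00608, minus strand of scaffold 2 from 33045459 to 33048280), a CC chemokine that attracts monocytes, averaged 0.44 CPM at stage 26 and 0.77 CPM at stage 34 without injection. The uninjected means of *il1b* (0.89 and 0.34 CPM), *tnf* (0.86 and 0.82 CPM) and *ltb* (0.44 and 0.26 CPM) were also low. At stage 26 *ccl4* had 3.95, 4.26 and 6.21 CPM in *t*/*t2* MO embryos, 10.6, 2.02 and 1.99 CPM in cMO embryos and 0.147, 0.290 and 0.869 CPM in uninjected embryos. In stage 34 embryos it had 14.0, 9.19 and 8.35 CPM, 9.11, 4.53 and 5.23 CPM, and 0.524, 0.976 and 0.818 CPM in *t*/*t2* MO, cMO and uninjected embryos. The cMO library of frog D at stage 26 stood above the *t*/*t2* MO library of the same frog. The log2 fold changes were 3.60 ± 0.42 for *t*/*t2* MO and 3.27 ± 0.42 for cMO, and leaving out frog D moved the cMO value to 2.16, leaving out frog F to 3.91.

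*il1r2* (Xetro.B00998, minus strand of scaffold 2 from 58527171 to 58540422) encodes the decoy receptor that binds interleukin-1 without passing on its signal. In stage 26 embryos it was at 72.8, 33.1 and 24.1 CPM in *t*/*t2* MO embryos, 40.0, 13.7 and 5.44 CPM in cMO embryos and 9.65, 5.79 and 4.64 CPM in uninjected embryos. At stage 34 it was at 54.4, 31.7 and 31.8 CPM, 26.9, 16.4 and 23.0 CPM, and 2.82, 8.92 and 9.27 CPM in *t*/*t2* MO, cMO and uninjected embryos. The cMO library of frog F at stage 26 overlapped the uninjected libraries, and that of frog D was the highest of the cMO libraries. The log2 fold changes were 2.59 ± 0.38 for *t*/*t2* MO and 1.62 ± 0.37 for cMO, and the cMO value was 1.02 without frog D, while the cMO call was lost without frog E.

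*tnfaip2* (Xetro.H01522, plus strand of scaffold 8 from 76616489 to 76625461), first known as a gene that TNF induces in mammalian endothelial cells, had the highest fold changes in the fit over both stages, though not at stage 34 alone, where *il1b* was higher with either MO and *ccl4* with *t*/*t2* MOs. At stage 26 it stood at 30.8, 40.8 and 39.3 CPM in *t*/*t2* MO embryos, 30.3, 14.6 and 4.98 CPM in cMO embryos and 1.20, 0.493 and 2.37 CPM in uninjected embryos. In stage 34 embryos it stood at 196, 70.6 and 111 CPM, 135, 55.6 and 90.4 CPM, and 2.23, 21.7 and 6.79 CPM in *t*/*t2* MO, cMO and uninjected embryos. The uninjected library of frog E at stage 34 was well above those of frogs D and F. The log2 fold changes were 4.08 ± 0.49 for *t*/*t2* MO and 3.30 ± 0.48 for cMO. Without that uninjected library they were 4.79 and 4.05, without frog E 4.77 and 4.09, and the cMO value was 2.42 without frog D.

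*socs3* (Xetro.G01986, minus strand of scaffold 7 from 111987807 to 111991567) encodes an inhibitor that cytokines induce through STAT3 and that shuts down JAK-STAT signalling. In stage 26 embryos it had 6.70, 14.9 and 4.47 CPM in *t*/*t2* MO embryos, 4.55, 3.00 and 2.93 CPM in cMO embryos and 3.18, 2.75 and 3.27 CPM in uninjected embryos. At stage 34 it had 22.2, 22.1 and 18.7 CPM, 8.36, 10.8 and 7.95 CPM, and 3.71, 4.69 and 3.67 CPM in *t*/*t2* MO, cMO and uninjected embryos. The cMO embryos overlapped uninjected ones at stage 26 and lay between both other groups at stage 34. The log2 fold changes over both stages were 1.92 ± 0.23 for *t*/*t2* MO and 0.69 ± 0.23 for cMO, and this cMO value was not called (1 of 12 settings called it). At stage 34 alone the cMO value was 1.17 ± 0.29 and was called higher, as were 0.701% of all genes.

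*map3k14* (Xetro.J00492, plus strand of scaffold 10 from 19063055 to 19071670) carries the symbol of NIK, the kinase that starts non-canonical NF-kappaB signalling, while its best-hit description is MAP3K8. Like *map3k14* in RefSeq, it has *cdk5r1*, *psmd11* and *dcakd* close by. At stage 26 it measured 4.56, 6.69 and 4.56 CPM in *t*/*t2* MO embryos, 3.42, 3.56 and 3.08 CPM in cMO embryos and 1.66, 1.91 and 2.61 CPM in uninjected embryos. In stage 34 embryos it measured 15.0, 18.0 and 15.0 CPM, 6.40, 7.83 and 7.45 CPM, and 3.76, 4.79 and 3.61 CPM in *t*/*t2* MO, cMO and uninjected embryos. At both stages every *t*/*t2* MO library lay above every cMO library, as for 14.7% of all genes at stage 26 and 22.9% at stage 34. Every cMO library lay above every uninjected one (6.73% and 11.7% of all genes). The log2 ratio of cMO to uninjected embryos was 1.02, 0.88 and 0.23 in frogs D, E and F at stage 26. At stage 34 this ratio was 0.76, 0.705 and 1.04. The log2 fold changes were 1.67 ± 0.15 for *t*/*t2* MO and 0.77 ± 0.15 for cMO.

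Set directly against cMO embryos, *t*/*t2* MO embryos had higher *socs3* (log2 fold change 1.23 ± 0.23), *il1r2* (0.97 ± 0.36), *map3k14* (0.90 ± 0.14) and *il1b* (0.83 ± 0.35) and lower *ltb* (-2.20 ± 0.48). These 4 higher and 1 lower calls compare with 6.10% and 7.53% of all genes, and again the libraries are those that chose the genes. The other genes did not pass, at 0.77 ± 0.42 for *tnfaip2*, 0.34 ± 0.35 for *ccl4*, 0.33 ± 0.24 for *tnf* and 0.29 ± 0.20 for *il8*. Without frog E 3 of the 9 genes were called, without frog D 7 were, and at an FDR of 1% 3 were. Leaving out frog D also moved *ltb* to -2.84 and *ccl4* to 1.05.

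**Figure D3:**
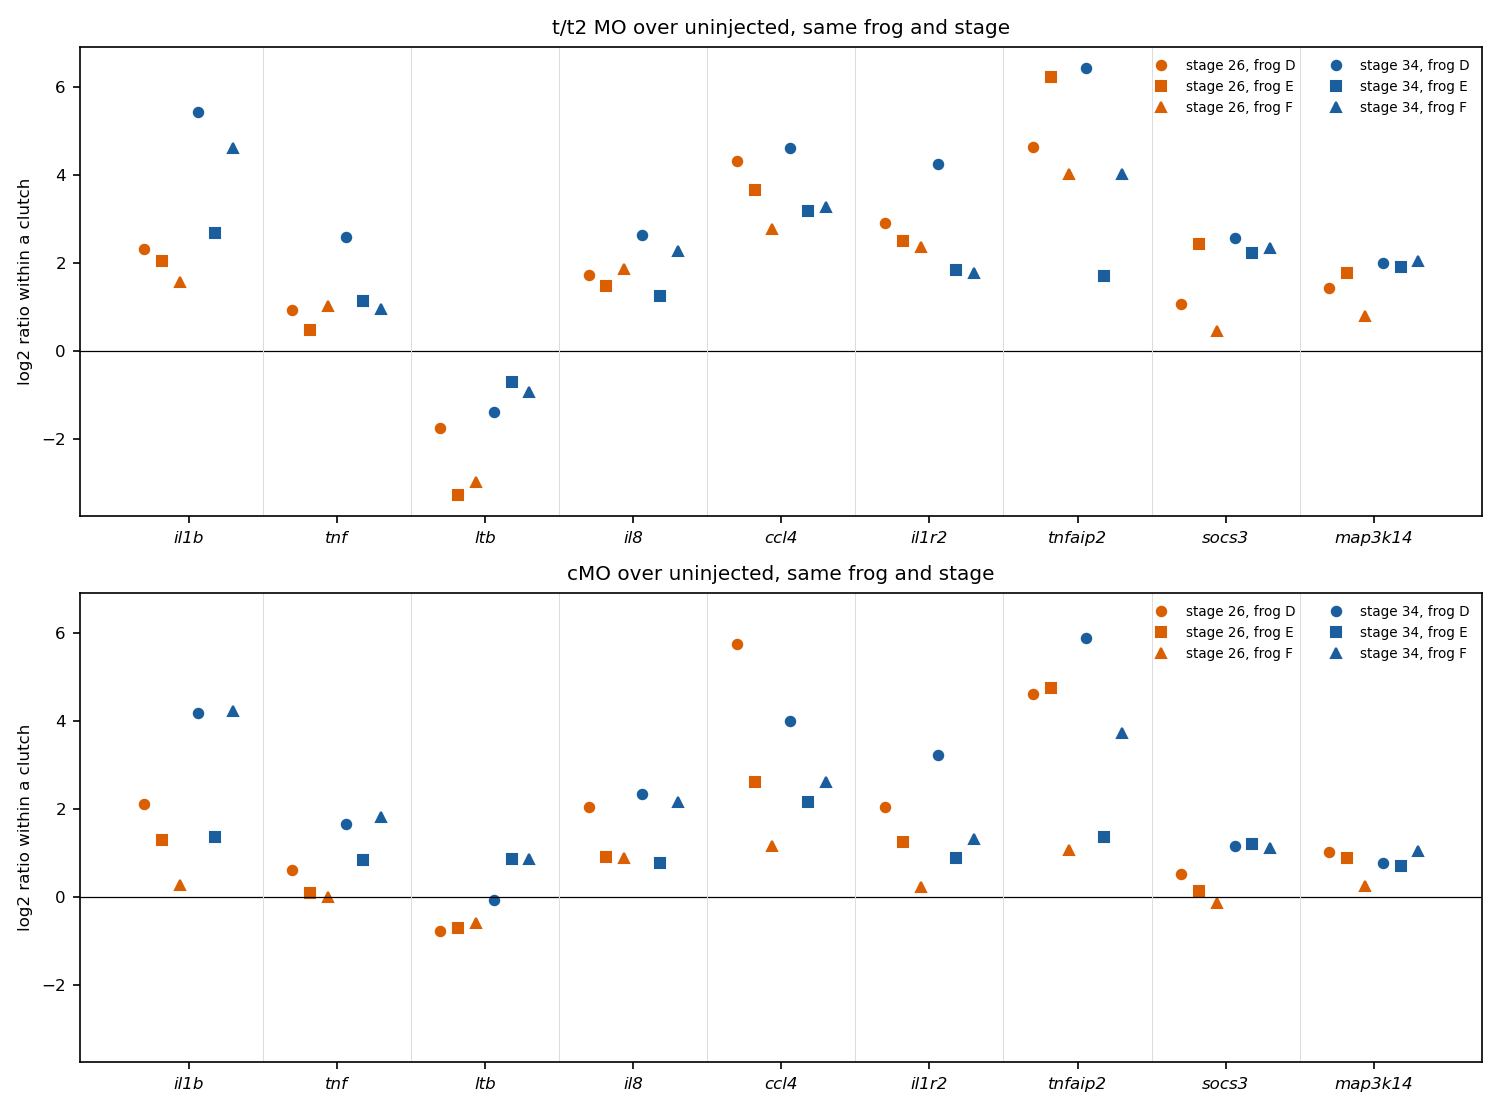
Log2 ratio of *t*/*t2* MO (top) and cMO (bottom) to uninjected embryos of the same frog and stage, for each gene (log2 CPM with a prior count of 2). In the lower plot the stage 26 points of frog F are the lowest of that stage for 8 genes, all but *ltb*.

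Clutches differed in how far the genes stood from uninjected embryos. With cMO, the median log2 ratio over the 9 genes at stage 26 was 2.04 in frog D, 0.91 in frog E and 0.23 in frog F. At stage 34 the medians were 2.34, 0.88 and 1.82. With *t*/*t2* MOs they were 1.73, 2.04 and 1.56 at stage 26 and 2.64, 1.83 and 2.28 at stage 34. In cMO embryos of frog F at stage 26, *tnf* was at a log2 ratio of 0.005, *il1r2* at 0.23 and *il1b* at 0.27, while *ccl4* was at 1.15 and *tnfaip2* at 1.06. The uninjected embryos of frog E at stage 34 were the highest of the 3 uninjected libraries for 7 of 9 genes. Without that library, 6 members were called with cMO, of which *tnf* was not one.

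The levels of the genes were ordered by CPM per kilobase of the longest annotated transcript, a scale on which genes can be set against each other. In *t*/*t2* MO embryos at stage 34, *tnfaip2* came first at 42.2 ± 21.5 CPM per kilobase (SD, n = 3), followed by *il8* at 27.0 ± 9.13, *il1r2* at 18.0 ± 5.99, *socs3* at 11.6 ± 1.09, *ccl4* at 7.79 ± 2.26, *il1b* at 5.31 ± 2.45, *map3k14* at 4.94 ± 0.529, *tnf* at 1.46 ± 0.711 and *ltb* at 0.123 ± 0.0317. Neighbours down to *map3k14* lay within the sum of their SDs except for *socs3* and its neighbour *ccl4*, whereas *tnf* and *ltb* stood apart. In uninjected embryos of the same stage, *il8* came first at 6.45 ± 2.03 CPM per kilobase and *il1b* last at 0.276 ± 0.246. *ccl4* was last in uninjected embryos at stage 26, at 0.322 ± 0.284 CPM per kilobase, and 3.56 ± 0.907 in *t*/*t2* MO embryos.

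In *t*/*t2* KO embryos, 0 of the 9 genes were called higher or lower than in WT embryos, where 0.467% of all genes were called higher and 2.97% lower (edgeR, DESeq2 also 0). Neither of these fits included the cross. With the cross as a replicate block in edgeR, 1 gene was called, *tnfaip2* (below). In the edgeR fit without the block, 2 of the 9 genes, *il8* and *tnfaip2*, had an unadjusted p under 0.05, as did 2899 of 17983 genes past the filter. This comparison uses other libraries than those that chose the genes and was tested, but the study described its immune panel as particular to morphants, so that an absence of calls is not independent of the choice. All 9 fold changes were above 0, between 0.16 ± 0.15 for *map3k14* and 1.24 ± 0.39 for *tnfaip2* on the log2 scale, where the median over all genes was 0.004. The levels of 8 of the genes went together over the 36 libraries (r values below), so the 9 signs are not independent. At stage 26 the 3 KO libraries lay above the 3 WT libraries for *il8* and *tnfaip2*, that is, for 2 genes, against 6.83% of all genes. At stage 34 they did so for 0 of 9, against 9.43% of all genes. In *t*/*t2* het embryos 0 of 9 genes were called (edgeR, DESeq2 also 0, and 0 at an unadjusted p under 0.05), where 0.0222% of all genes were. The 3 het libraries lay below the 3 WT libraries for *ltb* at stage 34, as for 2.5% of all genes. None of the other members was separated from WT embryos at either stage.

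*tnfaip2* came closest to a call. In stage 26 embryos it had 0.727, 1.11 and 1.59 CPM in *t*/*t2* KO embryos of crosses 1, 2 and 9, 0.879, 0.835 and 0.559 CPM in *t*/*t2* het embryos, and 0.512, 0.577 and 0.498 CPM in WT embryos. At stage 34 it had 5.06, 19.4 and 5.72 CPM in KO, 3.77, 9.85 and 1.02 CPM in het and 3.04, 5.21 and 3.58 CPM in WT embryos. KO embryos were higher in 6 of 6 cross-by-stage pairs, and cross 2 at stage 34 was the highest. The log2 fold change was 1.24 ± 0.39 (adjusted p = 0.1005, just above the limit). With the cross as a replicate block it was 1.14 ± 0.30 and called (adjusted p = 0.0199), and over the fits that each left out a cross the adjusted p was between 0.0534 and 0.199.

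*il8* was higher in *t*/*t2* KO than in WT embryos in 6 of 6 pairs as well. Its level was 7.11, 7.26 and 8.46 CPM in KO and 6.88, 4.89 and 4.24 CPM in WT embryos at stage 26, and 10.1, 7.61 and 6.27 CPM in KO and 6.74, 4.86 and 4.61 CPM in WT embryos at stage 34. Cross 1 at stage 26 differed least. The log2 fold change was 0.52 ± 0.18 (adjusted p = 0.150), and without cross 1 it was 0.66 and called (adjusted p = 0.0151). With the replicate block the adjusted p was 0.0123 at a log2 fold change of 0.54, which is under 1.5-fold and thus no call.

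The remaining genes had log2 fold changes of 0.55 ± 0.31 for *il1b* (adjusted p = 0.512), 0.49 ± 0.28 for *il1r2* (0.519), 0.45 ± 0.46 for *ccl4* (0.744), 0.28 ± 0.20 for *socs3* (0.644), 0.22 ± 0.31 for *ltb* (0.851), 0.21 ± 0.25 for *tnf* (0.788) and 0.16 ± 0.15 for *map3k14* (0.726). *il1b* was higher in 5 of 6 pairs, at 0.646, 0.620 and 1.19 CPM in KO and 0.767, 0.427 and 0.570 CPM in WT embryos at stage 26. At stage 34 it was at 1.68, 0.625 and 1.10 CPM in KO and 1.17, 0.378 and 0.616 CPM in WT embryos. *il1r2* was also higher in 5 of 6 pairs, *ccl4*, *tnf* and *map3k14* in 4, and *socs3* and *ltb* in 3. The share of all genes with such pair counts was not computed. An adjusted p above the limit does not show that the levels were alike. For *ltb*, whose level was low in *t*/*t2* MO embryos, the libraries held 9, 16 and 10 counts in KO and 9, 17 and 6 counts in WT embryos at stage 26, and 12, 13 and 18 counts in KO and 11, 11 and 13 counts in WT embryos at stage 34. The *t*/*t2* MO and *t*/*t2* KO differences come from separate experiments and were not tested against each other here.

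**Figure D4:**
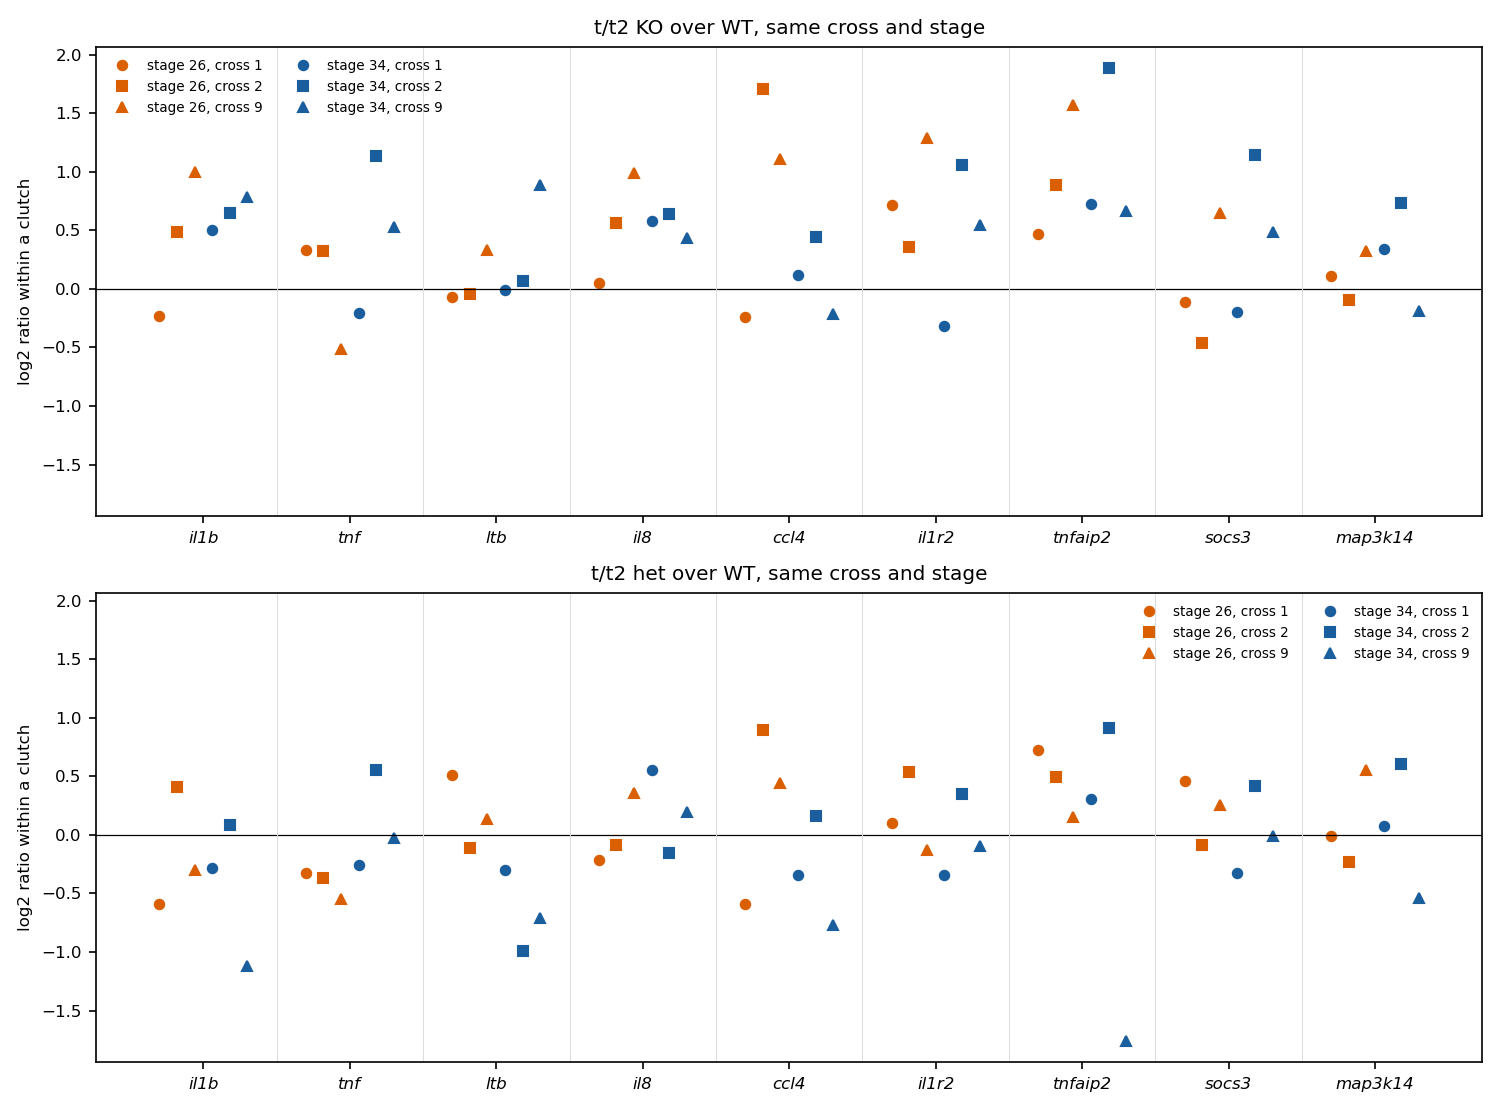
Log2 ratio of *t*/*t2* KO (top) and *t*/*t2* het (bottom) to WT embryos of the same cross and stage, for each gene (log2 CPM with a prior count of 2). *tnfaip2* and *il8* lie above 0 in all 6 KO pairs, and the het points of both stages together lie on both sides of 0 for every gene. Within a single stage the het points are all below 0 for *ltb* (stage 34) and *tnf* (stage 26) and all above 0 for *tnfaip2* (stage 26).

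The change between stages 26 and 34 was tested in WT embryos. Stage was not used to choose the genes, though they were chosen with earlier results of these data known. *map3k14* rose by a log2 fold change of 1.20 ± 0.22 (adjusted p = 8.26e-04), *tnfaip2* by 2.88 ± 0.62 (adjusted p = 0.0025) and *socs3* by 0.89 ± 0.30 (adjusted p = 0.0439). The call of *socs3* was lost without cross 1 (0.42, adjusted p = 0.512), and *il1r2* was called only without cross 2 (1.42, adjusted p = 0.00309). Thus 3 of 9 genes rose and 0 fell, where 12.0% and 5.47% of all genes did.

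The uninjected libraries are part of the contrasts that chose the genes, so their stage change is given as a description. *map3k14* was at 0.99 ± 0.19, *tnfaip2* at 2.92 ± 0.75 (1.33 without frog E, 1.68 without its stage 34 library and 3.83 without frog F) and *socs3* at 0.41 ± 0.30 on the log2 scale. *il1b* was lower at stage 34, at -1.31 ± 0.53 (-1.04 without frog D, -2.45 without frog E and -0.81 without frog F), whereas in WT embryos it was at 0.29 ± 0.47 (adjusted p = 0.759). By the call, 2 of 9 genes were higher and 1 lower in uninjected embryos at stage 34, where 19.9% and 12.0% of all genes were.

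**Figure D5:**
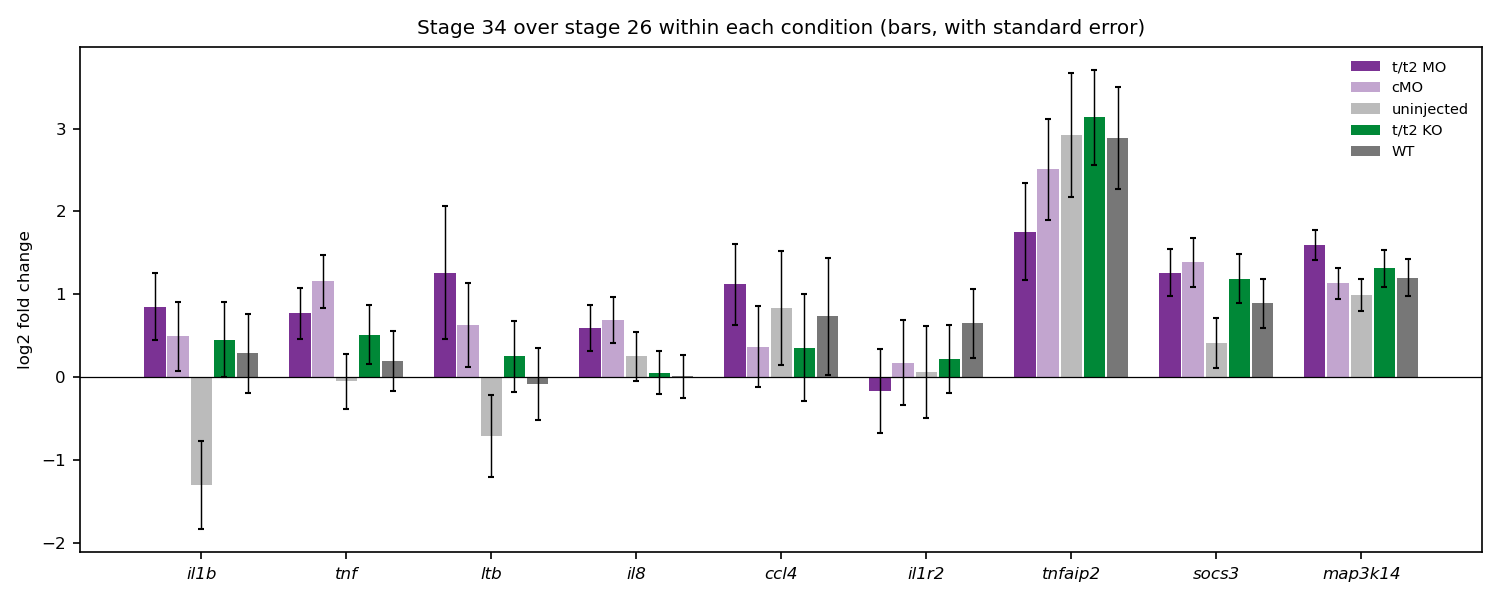
Change of each gene between stages 26 and 34 within each condition, as log2 fold change with standard error from the fit of the group means. *tnfaip2*, *map3k14*, *socs3*, *ccl4* and *il8* have bars above 0 in all 5 conditions, those of *il8* in KO (0.05) and WT embryos (0.01) close to 0. *il1b* has its bar below 0 in uninjected embryos alone.

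How far the morpholino difference changed with stage (the interaction) is likewise a description, since it rests on the libraries that chose the genes. For *t*/*t2* MO against uninjected embryos, 1 of 9 genes met the call, and in the higher direction, where 3.30% of all genes did in the higher and 2.30% in the lower direction. This was *il1b*, whose log2 fold change was 4.18 ± 0.50 at stage 34 and 2.03 ± 0.45 at stage 26, a difference of 2.16 ± 0.66. The low uninjected level at stage 34 is part of that difference. With the frog as a replicate block, *il1b* (2.09) and *map3k14* (0.62) met the call. Leaving out frog D gave *il1b* a value of 1.59 and leaving out frog F 1.79, and neither met the call, while it was 3.45 without frog E and 3.21 without the uninjected stage 34 library of that frog. *ltb* met the call without frog D (5.74), where its stage 26 libraries with *t*/*t2* MOs were both at 0 counts, and *socs3* without frog E (1.65).

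For cMO against uninjected embryos, 0 of 9 genes met the call for an interaction with stage, as did 0% of all genes (edgeR, DESeq2 also 0 members). Of 17987 genes past the filter, 525 had an unadjusted p under 0.05 in edgeR, and 3 of the members did. These 3 were *il1b* at 1.80 ± 0.67, *tnf* at 1.21 ± 0.46 and *socs3* at 0.98 ± 0.42 on the log2 scale. Taken stage by stage, 3 genes were called higher with cMO at stage 26 (*il8*, *ccl4* and *tnfaip2*), where 0.295% of all genes were. At stage 34, 7 were called higher (all members but *il1r2* and *ltb*), where 0.701% of all genes were. That a gene passed at one stage and not at the other does not show that the stages differed. For *t*/*t2* KO against WT embryos, 0 of 9 genes had an interaction with stage (edgeR, DESeq2 also 0, and 0 at an unadjusted p under 0.05), where 0.0278% of all genes had.

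Further genes of the same pathways were counted in lists that hold none of the 9 genes. The lists were chosen with earlier results of these data known, and the morpholino contrasts use the libraries that chose the 9 genes. List calls and adjusted p-values with MOs, here and in the next lists, are therefore descriptions. Of 35 NF-kappaB pathway genes past the filter, 9 were called higher and 1 lower in *t*/*t2* MO embryos, 4 higher and 1 lower in cMO embryos and 0 in *t*/*t2* KO embryos. Over all genes, for these and the next lists, 6.64% were called higher and 8.58% lower with *t*/*t2* MOs, 0.773% and 0.650% with cMO, and 0.467% and 2.97% in KO embryos. The median log2 fold change of the list was 0.10 with *t*/*t2* MO, 0.13 with cMO and 0.003 in KO embryos, against -0.033, -0.001 and 0.004 over all genes. The 4 that rose most with *t*/*t2* MOs were *nfkbiz* (1.80 ± 0.18, adjusted p = 1.28e-07), an atypical IkappaB that co-activates NF-kappaB, the TRAF-binding adaptor *tank* (1.70 ± 0.17, adjusted p = 1.82e-07), the kinase *map3k8* (1.28 ± 0.17, adjusted p = 8.66e-06) and the NF-kappaB subunit *rel* (0.99 ± 0.12, adjusted p = 1.31e-06). The 1 that fell was *tradd* (-0.59 ± 0.09, adjusted p = 6.02e-05), an adaptor of TNF receptors. The 1 that fell with cMO, named after its value was seen, was the IL-1 receptor kinase *irak4* (-1.37 ± 0.15, adjusted p = 9.90e-06), which with *t*/*t2* MOs was at -0.27 ± 0.15 (adjusted p = 0.194).

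Of 25 genes for cytokines, chemokines and their receptors, 8 were called higher and 1 lower with *t*/*t2* MOs, 3 higher and 0 lower with cMO, and 0 in KO embryos, beside 6.64% and 8.58% of all genes with *t*/*t2* MOs and 0.773% and 0.650% with cMO. The list's medians were 0.35, 0.14 and 0.12, against -0.033, -0.001 and 0.004 over all genes. *csf3*, the granulocyte colony-stimulating factor, rose most with *t*/*t2* MOs (3.18 ± 0.42, adjusted p = 6.29e-06), followed by the IL-17 receptor *il17ra* (1.54 ± 0.25, adjusted p = 7.95e-05), *tnfsf11* (1.39 ± 0.32, adjusted p = 0.00251) and the IL-10 receptor *il10ra* (1.39 ± 0.16, adjusted p = 8.99e-07). The chemokine *cxcl14* fell (-0.85 ± 0.24, adjusted p = 0.0124).

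Of 32 feedback inhibitors and JAK-STAT genes, 7 were called higher and 0 lower with *t*/*t2* MOs, 3 higher and 0 lower with cMO, and 0 in KO embryos, where the shares of all genes were again 6.64% and 8.58%, and 0.773% and 0.650%. Its medians were 0.17, 0.09 and 0.03, against -0.033, -0.001 and 0.004 over all genes. The leading genes with *t*/*t2* MOs were *zc3h12a* (1.79 ± 0.19, adjusted p = 3.11e-07), an RNase that degrades cytokine mRNAs, *atf3* (1.27 ± 0.14, adjusted p = 6.43e-07), *tnip1* (1.22 ± 0.19, adjusted p = 4.33e-05), which restrains NF-kappaB, and *zfp36* (1.16 ± 0.14, adjusted p = 1.82e-06), which destabilises the mRNA of TNF. Leaving out frog D moved the cMO count over all 4 lists to 7, against 12 with it.

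Markers of myeloid cells were counted in the same way. Of 17 markers past the filter (18 of 24 were in the table), 8 were called higher and 1 lower with *t*/*t2* MOs, 0 higher and 1 lower with cMO and 1 higher in *t*/*t2* KO embryos. All genes gave 6.64% and 8.58%, 0.773% and 0.650%, and 0.467% and 2.97% in these comparisons. The markers' medians were 0.53, -0.22 and 0.36, against -0.033, -0.001 and 0.004 over all genes. Their summed level at stage 26 was 599 to 862 CPM in *t*/*t2* MO, 280 to 517 CPM in cMO and 529 to 753 CPM in uninjected embryos. In stage 34 embryos it was 760 to 859 CPM, 424 to 561 CPM and 367 to 435 CPM, and in KO against WT embryos it was 458 to 637 against 441 to 516 CPM at stage 26 and 393 to 617 against 302 to 389 CPM at stage 34. With cMO the sum was lower than in every uninjected library at stage 26, while at stage 34 the cMO and uninjected ranges overlapped. The *t*/*t2* MO range overlapped the uninjected one at stage 26 and lay above it at stage 34. Likewise, the KO range overlapped the WT range at stage 26 and lay above it at stage 34. Such a sum rests mostly on the most abundant markers, with mean normalized counts of 7280 for *mpo* and 2450 for *lcp1*. Of the markers, *mpo*, the neutrophil peroxidase, had at least 4013 counts in every library, and *lyz* had at most 13. The genes that rose most with *t*/*t2* MOs were the matrix proteases *mmp9* (1.58 ± 0.32, adjusted p = 7.57e-04) and *mmp7* (1.48 ± 0.25, adjusted p = 1.12e-04), and the transcription factors *cebpe* (1.17 ± 0.21, adjusted p = 1.93e-04) and *spib* (1.12 ± 0.19, adjusted p = 9.37e-05), and *itgam*, at 0 to 29 counts, fell (-2.91 ± 0.74, adjusted p = 0.00499). The markers not called, named after their values were seen, were *spi1* (0.53 ± 0.19), *lcp1* (0.52 ± 0.20), *runx1* (0.43 ± 0.15), *tyrobp* (0.40 ± 0.34), *mpo* (0.34 ± 0.16), *csf1r* (0.06 ± 0.21), *cebpa* (-0.09 ± 0.14) and *ptprc* (-0.51 ± 0.21). The gene called in KO embryos, named after its value was seen, was the haematopoietic factor *runx1* (0.68 ± 0.18, adjusted p = 0.0275), and over all 4 lists 0 genes were called without cross 1 and 4 without cross 2. The part of the myeloid cells in the levels of the 9 genes was not tested.

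After subtracting the mean of each clutch and stage, Pearson's r of log2 CPM over the 36 libraries was 0.68 to 0.93 over the 28 pairs of genes other than *ltb*, and -0.64 to -0.34 for the 8 pairs with *ltb*. These r values are descriptions, since the libraries share conditions and clutches and include those that chose the genes. Closest to *il1b* and *il8* among all other named genes was *csf3* (r = 0.96 and 0.94), to *il1r2* and *tnfaip2* the receptor *gpr84* (0.94 and 0.95), to *ccl4* the NF-kappaB inhibitor *nfkbia* (0.96) and to *tnf* *olfm4* (0.84). Closest to *socs3* was *ptafr* (0.92), with the related feedback gene *cish* next (0.92), and closest to *map3k14* was *tmcc3* (0.94), with *junb* next (0.93). The genes most like *ltb* were *appl2* (0.87), *heatr6* (0.86) and *yrdc* (0.86), of which none is among the genes most like any other member.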

How the data were processed

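Poly(A) RNA-seq libraries (76-base read pairs) were, according to the authors' methods, aligned with Bowtie2 2.1.0 to revised v7.2 gene models, and read pairs aligned to a single gene were counted. The authors deposited raw counts for 36 libraries, without normalization. The 3 entries naming no gene (27.3% to 34.0% unaligned, 0.0705% to 0.462% ribosomal and 0.00592% to 0.0582% mitochondrial) were left out. Gene positions came from the deposited v7.1 annotation. Counts were TMM-scaled and tested with edgeR 4.0.16 in R 4.3.3 (quasi-likelihood, stage plus condition, each experiment separately, Benjamini-Hochberg over 25209 and 24952 genes), with group means for stage and interaction. Standard errors were derived from each fold change and the quasi-likelihood F statistic of its test, so they are not a separate estimate. Calls needed an FDR of 10% or less, 1.5-fold and a mean normalized count above 7 over uninjected, cMO, WT and *t*/*t2* het libraries. Alternatives were DESeq2 1.42.0, median-of-ratios size factors, filtering first, no filter, 1% FDR, the compared conditions alone, each clutch left out and a clutch block. Clutches pair the samples by their shared parents: deviations from group means correlated within clutches at a mean r of 0.309 (KD) and 0.298 (KO). The mean r between clutches, -0.154 and -0.149, follows largely from subtracting the group means and adds no evidence of its own. The main fits left this pairing out, and of the alternatives only the clutch block took it in. No 2 libraries were alike beyond r = 0.994. The 9 genes and the lists were chosen with earlier results of these data known. Named were all 9 genes, and up to 4 called genes per list and direction with the largest *t*/*t2* MO change. Also named were the 3 most alike genes per member (some printed), *t*, *t2* and the muscle markers *actc1*, *myod1* and *myh6*. The scripts were tested on simulated data. Figures used matplotlib 3.10.9.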

Additional observations from a re-analysis of the deposited data

Results flagged for a closer look

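The *t*/*t2* MO difference of *il1b* had a larger estimate at stage 34 than at stage 26, by 2.158 ± 0.66 on the log2 scale (2.16 rounded), and met the call for an interaction in edgeR's fit. The libraries are those that chose the gene, so the value is a description. The call was lost at an FDR of 1%, on leaving out frog D (1.59) or frog F (1.79), and the value was 3.45 without frog E. In uninjected embryos of frogs D, E and F at stage 34 *il1b* had 8, 30 and 5 counts. Groups of 3 libraries were too small for a test of single outlying libraries.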

How the results depend on the processing

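The count of members called was within 1.5 times its value, or also 0, in all alternatives except these. With cMO against uninjected embryos it was 7, and 3 at stage 26 alone (chosen after seeing the data), while without each frog in turn it stayed within that limit, at 5 to 6. For *t*/*t2* MO against cMO it was 5, 3 at an FDR of 1% and 3 to 7 without each frog. For *t*/*t2* KO against WT it was 0, but 1 with the compared conditions only, with median-of-ratios size factors and with the replicate block (*tnfaip2* in each), and 0 to 1 without each cross. For the stage-by-*t*/*t2* MO interaction it was 1, 0 at an FDR of 1%, 2 with the replicate block and 0 to 2 without each frog. Calls of list genes (a gene in 2 lists counted in each) were 12 with cMO, 7 at 1% FDR and 7 to 9 without each frog, and 1 in *t*/*t2* KO embryos, 0 at 1% FDR, 2 with the replicate block and 0 to 4 without each cross. The *t*/*t2* KO fold change of *ltb* lay between -0.027 and 0.356 without each cross (log2, lowest without cross 9). The block changed no other call named here except those given above. The causes were not tested. Over all libraries, depth limits *ltb* most, with at most 20 counts in a library. In the KO experiment *ccl4* was also low, with 14, 11 and 13 counts in KO and 16, 2 and 4 counts in WT embryos of crosses 1, 2 and 9 at stage 26.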
